A study of Mus musculus with 14 samples.

Results

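The complement genes of the mouse liver, 35 in all, were taken by symbol from a table of 17552 genes measured in liver RNA of male mice deficient in Apoe, of the C57BL/6 strain by the labels and C57BL/6J by the study's methods. They comprise 20 components and regulators made mainly by hepatocytes (C1ra, C1s1, C1rl, C2, C3, C4a, C4b, C4bp, C6, C8a, C8b, C8g, C9, Cfb, Cfi, Clu, Masp1, Masp2, Mbl1 and Mbl2). A further 5 are made mainly by macrophages (C1qa, C1qb, C1qc, Cfp and Fcna), 7 encode receptors or membrane regulators (C3ar1, C5ar1, C5ar2, Cd93, Cd55, Cd59a and Cr1l), and 3 have other main sources (Cfd in adipocytes, C7 and Colec11 in mesenchymal cells). All mice were Apoe-deficient and received a Western diet, 7 pools of liver RNA without further addition (control) and 7 with erythrodiol, a triterpene found in olives, at 10 mg/kg. The labels give an age of 8 weeks and 8 weeks of diet, whereas the study's methods state a longer feeding period, so that the duration is uncertain. Each library was made from poly-A RNA pooled from a few mice. No group without Apoe deficiency and none on a standard diet was analysed here.

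Complement is a cascade of plasma proteins, most of them secreted by the liver, that marks particles for uptake, releases small peptides that attract leukocytes, and assembles a pore in membranes. It starts through C1, through lectins that bind sugars, or through the slow spontaneous activation of C3, and the routes meet at the enzymes that cleave C3. Hepatocytes secrete most components, resident liver macrophages (Kupffer cells) secrete C1q, properdin and ficolin A, and membrane regulators restrain the cascade on host cells.

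Each gene had 1 expected count per group, the sum over the 7 libraries, so no spread between pools was known for any complement gene and no test or p-value could be given. Counts were divided by the total of their group, 122889032 in the control and 124686047 with erythrodiol. The difference is given as a log2 ratio of erythrodiol to control, with an interval at 95% that covers counting error only and not the variation between mice or pools. A gene was called higher or lower where the groups differed by at least 1.5-fold and held at least 100 counts together. All 35 complement genes reached 100 counts, as did 13291 genes in all. The median log2 ratio of those 13291 genes was 0.16 rather than 0, and ratios climbed with transcript length, from a median of -0.18 in the shortest of 10 equal classes of length to 0.33 in the longest. Beside each ratio the text therefore gives a length-adjusted ratio, the log2 ratio minus the median of the 500 genes nearest in length. For 9 complement genes (C1s1, C2, C4b, C5ar1, C8a, Cd55, Cd59a, Cd93 and Colec11) the sign of the length-adjusted ratio was the opposite of that of the plain ratio, and relative to the median of all genes the sign also turned for these 9 and for Clu.

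Control libraries held 34856340 to 55244294 clean reads and erythrodiol libraries 47669656 to 48058606, of which 64.33% to 81.43% and 72.96% to 76.13% mapped to genes. The share mapped to 1 gene was 51.36%, 52.68% and 54.17% in control replicates 1, 3 and 4. It was 60.85% to 67.12% in the other control libraries and 57.85% to 65.32% with erythrodiol. The control libraries thus differed more among themselves, and the control sums include all of them. Apoe itself still had reads in both groups of these deficient mice, 9403 control and 8293 erythrodiol counts. By RT-PCR the study found no Apoe expression in livers of its Apoe-deficient mice. A count per gene does not show whether the transcript is intact. Markers of hepatocytes made up 96230 and 95461 counts per 1000000 (CPM) in control and erythrodiol, of which Alb alone held 80551 and 77520. Of these 8 markers 2 had ratios below 0, beside 28.8% of all genes. The median ratio of the 8 was 0.20, or 0.09 when adjusted for length. Of the control libraries, 2 stood apart in the retention of an intron of Hc, given with its values further on, and the group sums could not be recomputed without them because the libraries are not named there.

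Across the 35 genes, 4 were called lower with erythrodiol (Cfd, C8g, Mbl2 and C1qa) and 0 higher. Of all 13291 genes, 3.14% were called lower and 2.55% higher. At 2-fold Cfd alone was called lower, against 0.549% of all genes. Relative to the median of all genes 7 were called lower against 6.16%. Relative to genes of like length 3 were called lower (Cfd, C8g and Mbl2) against 3.48% of all genes, and 24 of 35 had a negative length-adjusted ratio against 49.9% of all genes. In plain ratios 15 lay below 0 and 20 above, while 28.8% of all genes lay below 0. Past a looser limit of 0.32 on the log2 scale, 4 were higher (C3, C4a, C5ar2 and C6) against 24.4% of all genes, and 9 lower against 8.89%. The complement genes together took 1.67% of all counts in the control and 1.83% with erythrodiol, and without C3 the shares were 1.083% and 1.080%. The plot of log2 ratios by step of the cascade shows the low values of C1q, the mannose-binding lectins, Cfd and C8g next to the positive plain ratios of the C1 and lectin proteases, C3 and C6, of which only that of C1s1 turned negative when adjusted for length.

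**Figure D1:**
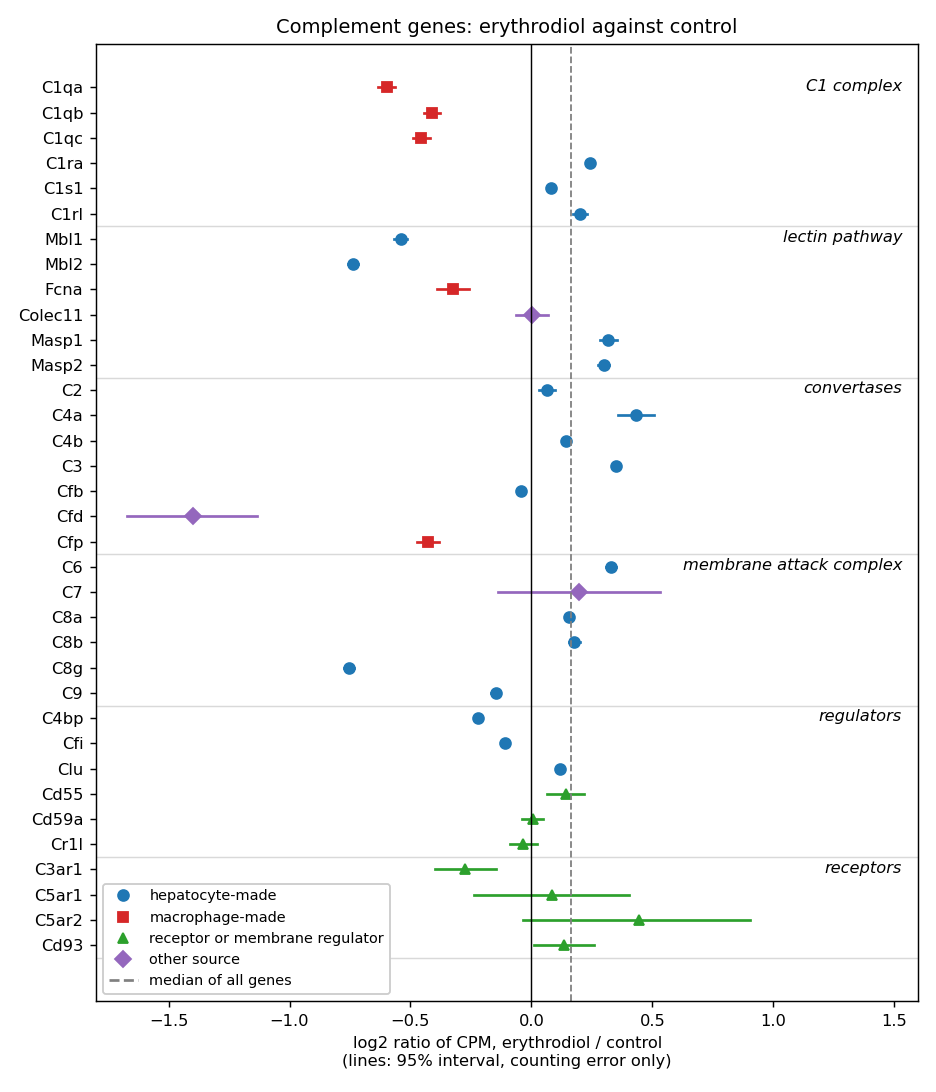
Log2 ratio of CPM, erythrodiol over control, on the x axis for each of the 35 complement genes, grouped by step of the cascade, with symbols for the main source, lines for the 95% counting interval and a dashed line at the median of all genes. Cfd lies lowest at -1.40, followed by C8g at -0.75, Mbl2 at -0.74 and C1qa at -0.60, and no gene passes 0.45 on the upper side.

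Levels between genes were compared per length, as CPM per kilobase of transcript. C3, on whose cleavage all routes converge, was the most abundant complement gene, at 1438 CPM per kilobase in the control and 1832 with erythrodiol. Clusterin (Clu) came next with 998 and 1083, then Cfb with 481 and 468. C8g was at 382 in the control, above all but these 3, and at 226 with erythrodiol, below C4bp, C4b, Cfi, C8a and C1s1. The receptors and C7 were at the other end, with C5ar2 lowest at 0.160 and 0.218. Since the spread between pools is unknown, neighbours in this order cannot be told apart by more than their counts.

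**Figure D2:**
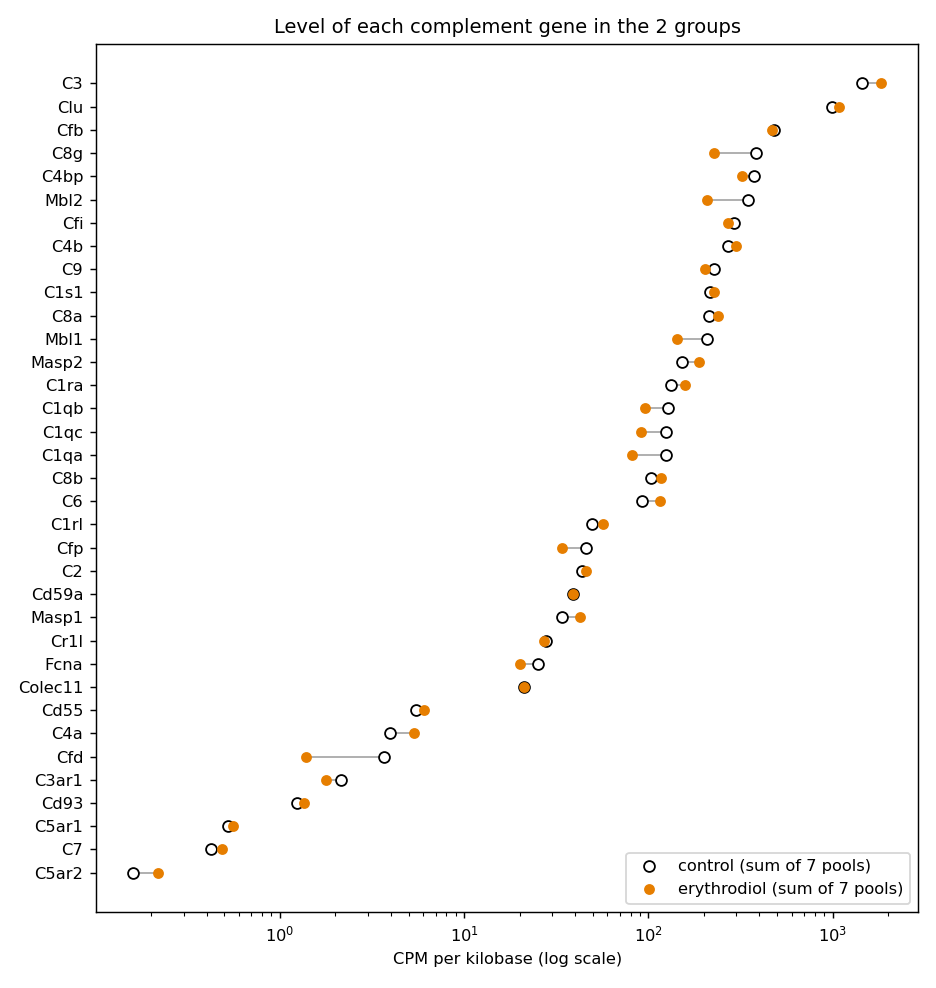
Level of each complement gene in CPM per kilobase on a log scale, in the control (open circles) and erythrodiol (filled circles) sums of 7 pools, ordered by the control level. Levels run from 0.160 for C5ar2 to 1438 for C3 in the control, and the widest gaps between circles are those of Cfd, C8g and Mbl2.

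In the C1 complex, which binds antibody and cell debris and starts the classical pathway, the recognition subunit lay below 0 and the proteases above it, except C1s1 when adjusted for length or to the median of all genes. The 3 chains of C1q are encoded side by side at chr4:136880126-136898844 (GRCm38), in the order C1qb, C1qc and C1qa. C1qa had 16475 control and 11038 erythrodiol counts, a log2 ratio of -0.60 (interval -0.63 to -0.56) or 1.51-fold lower, an interval that spans the 1.5-fold limit, and a length-adjusted ratio of -0.53. C1qb, with 16677 and 12715 counts, had a ratio of -0.41 (-0.45 to -0.38) and -0.33 after adjustment for length. C1qc gave 16207 and 12001 counts, a ratio of -0.45 (-0.49 to -0.42) and an adjusted ratio of -0.37. The 3 chains, which join in equal number in the C1q protein, were thus at nearly the same level in the control (124 to 128 CPM per kilobase), and C1qa was lower than C1qb by a further 0.19 on the log2 scale with erythrodiol. Of the proteases that C1q activates, C1ra had 45199 and 54258 counts, a ratio of 0.24 (0.22 to 0.26) and an adjusted ratio of 0.09. C1s1, which cleaves C4 and C2, had 77218 and 82829 counts, with a ratio of 0.08 (0.07 to 0.09) that turned to -0.08 when adjusted. C1rl, a C1r-like protease, had 18296 and 21342 counts, a ratio of 0.20 (0.17 to 0.23) and an adjusted ratio of 0.02.

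Promoters of the macrophage-made genes are shown because these genes had lower values together. They are RefSeq sequences of GRCm38.p6, 300 bases around a transcription start, which for C1qc and Fcna lies inside the annotated gene, read 5′ to 3′ on the gene's strand, and C1qa had no matching entry. Capitals mark GAGGAA or its reverse complement TTCCTC, the core of a purine-rich box that the macrophage factor PU.1 is known to bind, searched on both strands. The intervals are chr4:136886151-136886450 for C1qb, chr4:136892865-136893164 for C1qc, chrX:20931506-20931805 for Cfp and chr2:25627925-25628224 for Fcna, all on the minus strand.
C1qb: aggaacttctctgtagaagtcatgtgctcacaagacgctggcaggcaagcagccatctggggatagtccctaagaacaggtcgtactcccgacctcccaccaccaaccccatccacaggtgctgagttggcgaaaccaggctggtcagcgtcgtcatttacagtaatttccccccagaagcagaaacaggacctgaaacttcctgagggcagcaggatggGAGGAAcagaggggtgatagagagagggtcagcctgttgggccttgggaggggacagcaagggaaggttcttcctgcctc
C1qc: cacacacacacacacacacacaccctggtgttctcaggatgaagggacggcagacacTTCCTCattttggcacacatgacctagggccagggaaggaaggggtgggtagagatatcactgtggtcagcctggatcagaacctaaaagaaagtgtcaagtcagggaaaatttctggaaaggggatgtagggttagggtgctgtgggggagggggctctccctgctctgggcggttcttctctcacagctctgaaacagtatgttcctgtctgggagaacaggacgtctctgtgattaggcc
Cfp: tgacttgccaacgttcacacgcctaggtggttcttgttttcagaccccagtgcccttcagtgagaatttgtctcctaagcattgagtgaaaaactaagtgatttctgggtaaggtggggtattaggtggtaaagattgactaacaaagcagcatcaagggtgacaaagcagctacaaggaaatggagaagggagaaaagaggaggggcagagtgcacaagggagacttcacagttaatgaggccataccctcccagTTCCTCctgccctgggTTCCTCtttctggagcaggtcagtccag
Fcna: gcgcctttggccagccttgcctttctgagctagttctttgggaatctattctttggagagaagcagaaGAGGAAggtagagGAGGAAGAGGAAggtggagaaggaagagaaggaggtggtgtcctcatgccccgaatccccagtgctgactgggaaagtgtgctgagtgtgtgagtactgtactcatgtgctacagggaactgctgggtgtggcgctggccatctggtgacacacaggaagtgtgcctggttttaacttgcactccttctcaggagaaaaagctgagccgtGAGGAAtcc
The 6 letters occurred in all 4 of these promoters, once in C1qb and C1qc, 2 times in Cfp and 4 times in Fcna. Among all 32851 promoters of the table, 28.3% held them, and 7 of 29 complement promoters from 26 genes did, the others being C1ra, C5ar2 and Cd59a. A match of letters is a description and not a site of binding.

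In the lectin pathway the mannose-binding lectins and ficolin A lay below 0 and the proteases above it, with or without adjustment for length. Mbl2, a mannose-binding lectin secreted by hepatocytes, had 45451 control and 27666 erythrodiol counts, a ratio of -0.74 (-0.76 to -0.72) or 1.67-fold lower and -0.65 when adjusted for length. Mbl1, the other mannose-binding lectin, had 27684 and 19315 counts, a ratio of -0.54 (-0.57 to -0.51) or 1.45-fold lower, just short of a call, and an adjusted ratio of -0.47. Per length, Mbl1 stood at 0.600 of Mbl2 in the control and at 0.687 with erythrodiol. Ficolin A (Fcna), which binds acetylated sugars, had 4073 and 3302 counts, a ratio of -0.32 (-0.39 to -0.26) and an adjusted ratio of -0.31. Colec11, a collectin of the same pathway, was close to equal between the groups with 3645 and 3709 counts and a ratio of 0.00 (-0.06 to 0.07), or -0.01 adjusted. Masp1, the protease that activates Masp2, had 12787 and 16179 counts, with a ratio of 0.32 (0.28 to 0.35) and an adjusted ratio of 0.14. Masp2, which cleaves C4 and C2, had 26756 and 33388 counts and a ratio of 0.30 (0.27 to 0.32), and its adjusted ratio of 0.27 was the highest of the 35 genes. Summed over its 6 genes, the lectin pathway held 980 CPM in the control and 831 with erythrodiol, with 3 genes below 0 and 3 above, while the 6 genes of the C1 group summed to 1547 and 1557.

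The promoters of the mannose-binding lectins, which lie on different chromosomes and both had negative ratios, are printed with their longest shared run of letters in capitals. They are RefSeq sequences of GRCm38.p6 on the plus strand, at chr14:41151206-41151505 for Mbl1 and chr19:30232678-30232977 for Mbl2.
Mbl1: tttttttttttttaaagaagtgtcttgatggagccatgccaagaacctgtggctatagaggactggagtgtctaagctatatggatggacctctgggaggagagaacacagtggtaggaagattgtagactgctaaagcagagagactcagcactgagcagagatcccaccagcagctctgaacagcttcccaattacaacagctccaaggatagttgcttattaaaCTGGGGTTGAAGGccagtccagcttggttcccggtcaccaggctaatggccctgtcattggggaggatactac
Mbl2: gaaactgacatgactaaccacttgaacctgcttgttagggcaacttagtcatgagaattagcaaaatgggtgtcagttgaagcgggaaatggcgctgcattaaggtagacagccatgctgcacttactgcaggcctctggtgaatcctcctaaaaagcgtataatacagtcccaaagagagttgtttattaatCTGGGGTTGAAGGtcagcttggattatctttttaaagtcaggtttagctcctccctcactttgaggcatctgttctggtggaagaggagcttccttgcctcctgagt
The run of 13 bases began 23 bases before the start of Mbl1 and 57 bases before that of Mbl2, as counted from the start the promoter table uses, which for Mbl2 lies inside the gene at chr19:30232906-30239687, and 3 of the 32851 promoters held it on either strand. Over the promoters of all sources, the letters GTTAAT, one arm of the site of the liver factor HNF1, were found on either strand in 7 of 29 complement promoters (C1ra, C4bp, C7, C8a, C8b, Cd55 and Cfp) against 7.10% of all promoters, and TATAAA in 3 (C3, C3ar1 and C7) against 13.6%. Neither was found in the windows of Mbl1 and Mbl2.

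C3 and C4 are cleaved to form the convertases, the enzymes at the centre of the cascade. C3 had 724595 control and 936748 erythrodiol counts, a ratio of 0.35 (0.34 to 0.35) or 1.27-fold higher, and 0.11 after adjustment for length. It held the most counts of any complement gene, and without it the summed complement genes took nearly the same share in both groups. C4b, the gene of C4 in the mouse, had 181310 and 203269 counts with a ratio of 0.14 (0.14 to 0.15), which turned to -0.12 when adjusted. C4a, its neighbour on chromosome 17 known as the gene of sex-limited protein, had 2622 and 3590 counts, a ratio of 0.43 (0.36 to 0.51) and an adjusted ratio of 0.16. C2, the protease that joins C4b in the classical convertase, had 14183 and 15037 counts, with a ratio of 0.06 (0.03 to 0.10) and -0.09 adjusted. Cfb, its counterpart in the alternative pathway, had 163664 and 161334 counts, with a ratio of -0.04 (-0.05 to -0.03) and -0.19 adjusted. Cfp (properdin), which stabilises that convertase and is made by macrophages and neutrophils, had 9172 and 6913 counts, a ratio of -0.43 (-0.47 to -0.38) and an adjusted ratio of -0.49.

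Reads of C4a and C4b can be shared, since their transcripts are near-identical and both counts are fractional, so the difference between their ratios is uncertain. A pair of annotated transcripts (GENCODE M21, GRCm38) aligned over 5367 bases with 96.1% identity and 207 differences, and 16.5% of windows of 100 bases were identical. The C4b transcript is annotated as protein-coding, whereas that of C4a is annotated as a processed transcript. A stretch of 60 bases, from base 2761 of the C4b and base 2755 of the C4a transcript, is shown as one where the genes can be told apart, with its 13 differences in capitals.
C4b: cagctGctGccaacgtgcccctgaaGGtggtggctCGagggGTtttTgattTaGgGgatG
C4a: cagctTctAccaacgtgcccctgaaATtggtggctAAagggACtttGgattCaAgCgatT
Per length, C4b was at 68.4 times the level of C4a in the control and at 56.0 times with erythrodiol. Summed, both genes had 183932 and 206859 counts and a ratio of 0.15 (0.14 to 0.16).

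Cfd, factor D or adipsin, the protease that cleaves factor B, had the lowest ratio of the 35 genes. It had 416 control and 160 erythrodiol counts, a ratio of -1.40 (-1.67 to -1.13) or 2.64-fold lower and -1.25 after adjustment for length. Adipocytes are its best-known source, and the 5 adipocyte markers measured (Adipoq, Plin1, Lep, Cidea and Retn) held 80 and 54 counts in all, none of them reaching 100. Neutrophil markers were also lower, with 13.2 and 4.88 CPM over 8 genes. Of these, 3 (S100a8, S100a9 and Prtn3) reached 100 counts and were each called lower, beside 3.14% of all genes. These 3 lie in the shortest of the 10 length classes, where 19.3% of genes were called lower. Mpo, Elane, Ngp, Camp and Ltf held 3 to 59 counts in each group. The neutrophil protease genes Prtn3 (367 and 41 counts) and Elane (24 and 14) are the neighbours of Cfd on chromosome 10, within 79879667 to 79892655. The part of these cells in the values of Cfd and Cfp was not tested.

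In the membrane attack complex, the pore at the end of the cascade, C8g stood apart from the other chains of C8. C8g, a lipocalin that is linked to C8 alpha, had 47171 control and 28396 erythrodiol counts, a ratio of -0.75 (-0.77 to -0.73) or 1.69-fold lower and -0.64 when adjusted. C8a had 94192 and 106506 counts, with a ratio of 0.16 (0.14 to 0.17) that became -0.05. C8b had 28346 and 32523 counts, with a ratio of 0.18 (0.15 to 0.20) and an adjusted ratio of 0.06. Per length, C8g was at 1.79 times the level of C8a in the control and at 0.953 times with erythrodiol, and at 3.70 and 1.94 times that of C8b, while C8b was at 0.483 and 0.491 of C8a. C8g is the shortest of the hepatocyte-made genes at 1006 bases, against 3597 for C8a and 2239 for C8b, and the difference between the length-adjusted ratios was -0.59 to C8a and -0.70 to C8b. It overlaps Fbxw5 in the annotation, a gene with 3729 and 4769 counts, and the library preparation as described does not say whether the strand was kept.

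The other components of the pore differed less. C6 had 32290 and 41143 counts, a ratio of 0.33 (0.31 to 0.35) and an adjusted ratio of 0.18. C9, which polymerises into the wall of the pore, had 49031 and 44930 counts, with a ratio of -0.15 (-0.17 to -0.13) and -0.22 adjusted. C7 was barely detected, with 141 and 164 counts and a ratio of 0.20 whose interval (-0.14 to 0.53) held 0. The 6 genes of the pore summed to 2044 CPM in the control and 2034 with erythrodiol.

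None of the regulators was called. Among those in plasma, C4bp, which binds C4 fragments, had 86027 and 74796 counts, a ratio of -0.22 (-0.24 to -0.21) and an adjusted ratio of -0.32. Cfi, the protease that inactivates fragments of C3 and C4, had 74030 and 69589 counts, a ratio of -0.11 (-0.13 to -0.10) and an adjusted ratio of -0.22. Clu, which blocks assembly of the pore and also travels on lipoproteins, had 218748 and 240802 counts, a ratio of 0.12 (0.11 to 0.13) and 0.05 adjusted, but -0.04 relative to the median of all genes. On membranes, Cd55, which speeds the decay of convertases, had 2732 and 3057 counts, with a ratio of 0.14 (0.07 to 0.22) and -0.09 adjusted. Cd59a, which blocks the entry of C9, had 8411 and 8568 counts, with a ratio of 0.01 (-0.04 to 0.05) and -0.06 adjusted. Cr1l (Crry), the broad convertase inhibitor of rodents, had 5232 and 5189 counts, with a ratio of -0.03 (-0.09 to 0.02) and -0.07 adjusted. All 6 were below the median of all genes, and their sum was 3216 CPM in the control and 3224 with erythrodiol.

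The receptors were expressed at low levels. C3ar1, the receptor for the C3a peptide, had 1133 control and 951 erythrodiol counts, a ratio of -0.27 (-0.40 to -0.15), and its adjusted ratio of -0.53 was near that of C1qa. C5ar1, the main C5a receptor, had 160 and 172 counts and a ratio of 0.08 whose interval (-0.24 to 0.40) held 0, with -0.07 adjusted. C5ar2, the second C5a receptor, had 67.6 and 93.4 counts and the highest plain ratio of all at 0.45, but its interval of -0.04 to 0.90 held 0 as well. Cd93, a membrane protein first described as a C1q receptor and abundant on endothelium, had 1006 and 1120 counts, with a ratio of 0.13 (0.01 to 0.26) that turned to -0.17. The counting interval of C5ar1 lay within the 1.5-fold limit in both directions, whereas that of C5ar2 reached past the limit on the upper side. Since neither interval covers the variation between pools, they do not show whether a difference of that size was present.

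Compared by source, the macrophage-made genes had the lowest median, but they are short, at 1060 to 1636 bases. The 20 hepatocyte-made genes had a median length of 2703 bases. The 7 hepatocyte-made genes of at most 2000 bases had a median adjusted ratio of -0.32, with a range of -0.65 to 0.27. Low values were thus not particular to the macrophage-made genes. All 5 macrophage-made genes had negative plain ratios, with a median of -0.43 and a range of -0.60 to -0.32. After adjustment for length they ran from -0.53 to -0.31 with a median of -0.37. Together these 5 genes held 509 CPM in the control and 369 with erythrodiol. Only C1qa among them was called lower. All 5 lay below a looser limit of -0.32 on the log2 scale, which 8.89% of genes of all lengths passed. That share does not apply to genes as short as C1qa, C1qb and C1qc, which lie in the shortest class of length. In that class 19.3% of genes were called lower even at the stricter 1.5-fold limit. The counting interval of Fcna (-0.39 to -0.26) spanned the looser limit, and its adjusted ratio of -0.31 did not pass it. The 20 hepatocyte-made genes had a median ratio of 0.13, with 7 below 0 and 13 above, but a median of -0.07 after adjustment and -0.03 relative to all genes, with 11 of 20 below genes of like length. The 7 receptors and membrane regulators had a median of 0.08, which became -0.07 adjusted, with 6 of 7 below genes of like length and 0 called. The difference between the sources could not be tested, since there is 1 value per gene and group.

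Kupffer cell markers were lower in the same comparison. Of 9 markers, 8 had negative ratios, beside 28.8% of all genes, and the 9 summed to 1034 CPM in the control and 685 with erythrodiol. Marco had a ratio of -1.07, Adgre1 -0.75, Cd5l -0.70, Clec4f -0.65 and Vsig4 -0.59. These 5 were called lower, beside 3.14% of all genes. Timd4 had -0.48, Folr2 -0.32 and Csf1r -0.17, whereas Cd68, found in macrophages of all kinds, had 0.04. The length-adjusted ratios of the 9 markers had a median of -0.62, below the -0.37 of the macrophage-made complement genes. Markers of sinusoidal endothelium summed to 198 and 204 CPM, with 3 of 7 below 0, and those of stellate cells to 541 and 554, with 3 of 7 below 0. Bile duct markers were below 0 in 5 of 5, summing to 116 and 79.1, of which Spp1 alone held 102 and 67.1. Krt19 and Spp1, 2 of the 5, were called lower. The counting intervals of Krt7 (-0.62 to 0.03) and Sox9 (-0.22 to 0.04) held 0. No marker of these lists or of hepatocytes was at 0 in either group. In bulk RNA, fewer cells of a type and less RNA per cell cannot be told apart. The part of cell numbers in the ratios of C1q, Cfp, Fcna and the receptors was not tested.

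**Figure D3:**
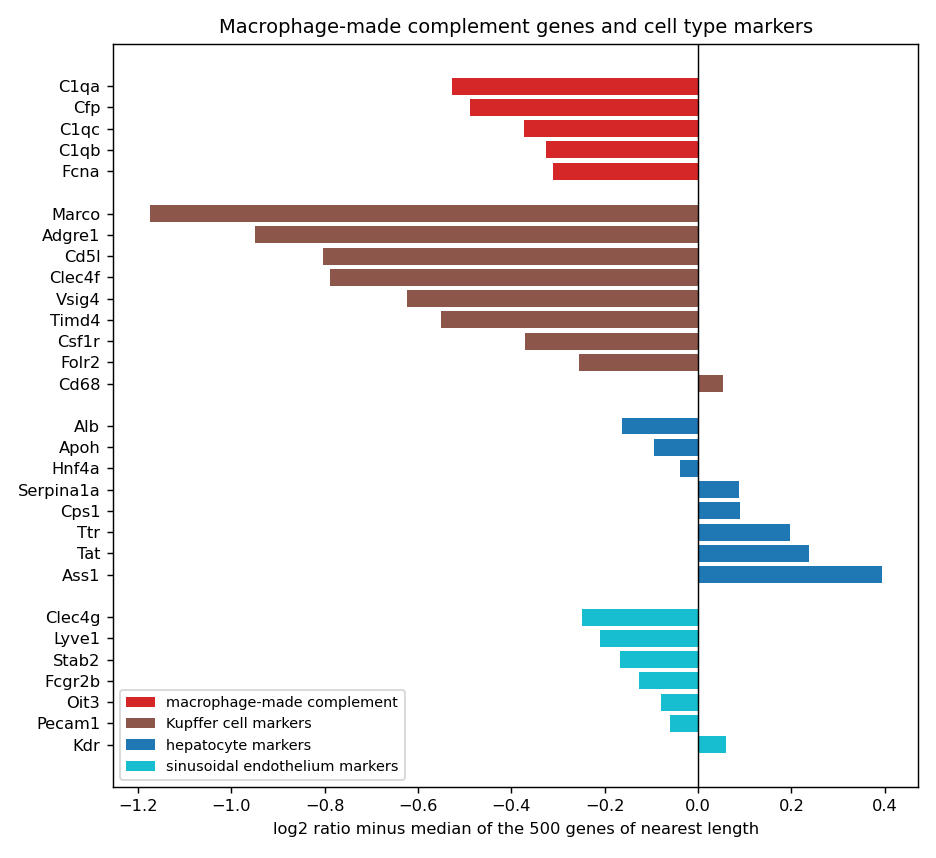
Length-adjusted log2 ratio, erythrodiol over control, as bars for the 5 macrophage-made complement genes and for markers of Kupffer cells, hepatocytes and sinusoidal endothelium, with 1 value per gene and no error known. The complement bars run from -0.53 to -0.31, 8 of the 9 Kupffer markers are below 0, and 5 of the 8 hepatocyte markers are above it.

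Transcript length separated the plain ratios of complement genes. Of the 16 genes of at most 2000 bases 12 were below 0, and of the 19 longer ones 16 were above 0. Among all genes, the length classes from 2023 bases upward had median ratios of 0.12 to 0.33, so most genes of such lengths also lay above 0. The classes up to 2022 bases had medians of -0.18, 0.01 and 0.09. Across the 35 genes the log2 ratio and log2 length correlated with r = 0.73 and rho = 0.74, across the 20 hepatocyte-made genes with r = 0.79, and across all 13291 genes with r = 0.44, as descriptions over genes that share the same libraries. All 4 called genes were among the 7 complement genes in the shortest of the 10 length classes, at 924 to 1082 bases, a class in which 19.3% of all genes were called lower. Within that class C1qb, C1qc and Mbl1 were not called. Masp2 at 1425 bases and C3ar1 at 4299 bases lay farthest against the trend, with adjusted ratios of 0.27 and -0.53. The part of fragment length or RNA quality in this trend was not tested.

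**Figure D4:**
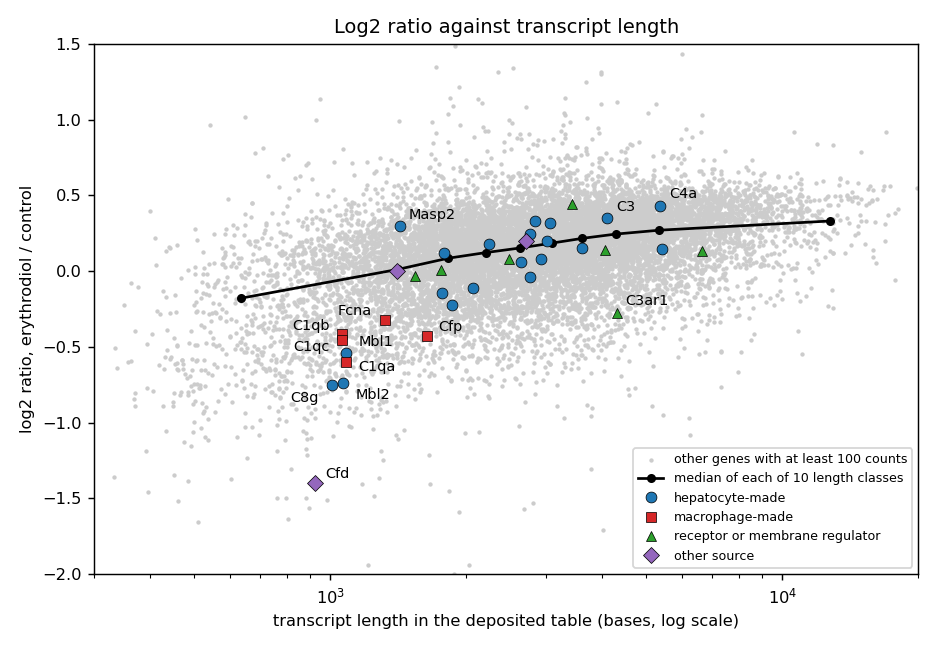
Log2 ratio, erythrodiol over control, against the transcript length in bases on a log scale, for complement genes (coloured by main source) and the other genes with at least 100 counts (grey, 18 of them outside the axes), with the median of each of the 10 length classes in black. The black line climbs from -0.18 to 0.33, the macrophage-made genes, the mannose-binding lectins, C8g and Cfd lie below it, and Masp2 lies above it.

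Of 30 further genes of the complement system, 24 reached 100 counts, 2 were called lower and 0 higher, beside 3.14% and 2.55% of all genes. Apcs, serum amyloid P, a pentraxin of the liver that binds C1q, had 22167 control and 10566 erythrodiol counts, a ratio of -1.09 (-1.12 to -1.06), or -0.98 adjusted. Vsig4, the complement receptor of Kupffer cells, had 8463 and 5703 counts with a ratio of -0.59 (-0.64 to -0.54), or -0.62 adjusted. The next lowest was Cpb2, a plasma carboxypeptidase, at -0.42. At the upper end Cpn1, a subunit of the carboxypeptidase that trims C3a and C5a, had a ratio of 0.39, Cr2, a receptor of B cells, 0.39 from 52 and 69 counts with an interval (-0.15 to 0.94) that held 0, and Calr, a chaperone that also binds C1q, 0.38. In all, 14 of the 24 were below 0 and 10 above, beside 28.8% of all genes below 0, and these were the same numbers as below and above genes of like length.

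Hc, the mouse gene of C5, from which the ligand of C5ar1 and C5ar2 is cut, had 121301 and 152121 counts, a ratio of 0.31 (0.30 to 0.32) and 0.04 adjusted. Values per library were read for this gene alone, and such values of other complement genes are not given here. They were counts of reads that retain or splice out the intron at chr2:34991271-34991599 (GRCm38), in an event that spans chr2:34991196-34991702 with the flanking exons. The share with the intron was 8.83% in the lowest control library, 52.5% at the median and 54.3% in the highest, and 51.1%, 57.3% and 62.5% with erythrodiol. Control values of 8.83% and 13.1% stood apart from the next at 48.2%, and 3 of the 7 control libraries lay below all erythrodiol libraries while the groups otherwise overlapped. The libraries held 450 to 1617 such counts each. The authors deposited the event because it passed their filter for a difference between the groups, so its difference is a description and no test is given.

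**Figure D5:**
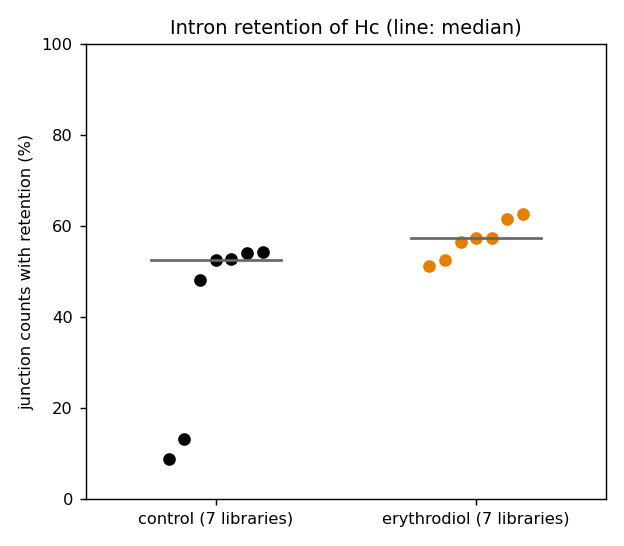
Percent of junction counts of Hc that retain the intron, in each of 7 control and 7 erythrodiol libraries (points), with the group median as a line. Control libraries at 8.83% and 13.1% lie far below the other 12, which span 48.2% to 62.5%.

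Beyond the reference transcripts, 13 of the 35 complement genes carried 19 new coding transcripts assembled over all libraries, 4 of them at Cfb, against 28.5% of all genes in the table with at least 1. Counts were fractional, that is, partly assigned by estimation between sequences, for 9 complement genes (C1ra, C1s1, C4a, C4b, C5ar2, Cd55, Cd59a, Cd93 and Masp2), against 20.5% of the genes with at least 100 counts. For 5 genes (C8a, C8g, Cr1l, Masp1 and Masp2) another gene of the table overlapped in the annotation, and the values of these genes are uncertain to that extent.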

How the data were processed

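The authors sequenced poly-A RNA of 14 liver pools (BGISEQ-500, paired ends), and groups and replicate numbers follow the labels of the samples. The gene table deposited by the authors holds 1 expected count for each group, made per the submitters' processing notes and the study's methods with Bowtie2 and RSEM on reference transcripts joined with transcripts assembled with StringTie and Cufflinks, after mapping with HISAT to GRCm38 (the notes also list GATK). Tool versions are not given in the sources used here. The authors also deposited the count of clean reads per library, the percent of them mapped to genes, and junction counts from rMATS without library names. Deposited columns of the authors' own comparison, a log2 ratio, p-values, q-values and a direction from the DEGseq method, were not used. The counts were read as sums over libraries, since their totals of 122889032 and 124686047 lie close to the mapped read pairs of 122887639 and 124690110.

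Here the expected counts were divided by column totals. Intervals are exact conditional binomial intervals at 95% on counts rounded to whole numbers, and they cover counting error only, since reads are not independent molecules. The design had allowed for gene values per library, of which none were found, so no test was made. Members and lists were chosen with earlier results of these data known. All 35 complement genes are named, and of the 30 further complement genes the called ones or, with fewer than 4, the 3 highest and 3 lowest, beside markers and neighbours needed for a result, the last chosen after values were seen. Promoters matched 26 of the 35 genes (not C1qa, C2, C4a, C4b, Cd93, Cfb, Cfi, Clu and Masp1). Unused sample columns numbered 0. The computation was tested on simulated data. Tools were scipy 1.17.1, numpy 2.4.6, biopython 1.88, pandas 2.3.3 and matplotlib 3.10.9 under Python 3.11.15.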

Additional observations from a re-analysis of the deposited data

Results flagged for a closer look

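The share of clean reads mapped to genes in control replicate 3 was 64.33%, far below the next control library at 74.39%. Its gap to that library was 0.588 of the whole range of the 7 control libraries, and 6 groups of library values were looked at in this way, of which chance would flag about 1 in 20. The expected counts of the complement genes include this library, and they could not be recomputed without it.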

How the results depend on the processing

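Members called at 1.5-fold numbered 4, all lower, and stayed within 1.5 times that number with genes of like length, without a minimum count, with at least 1000 counts, or with 1 count added. Relative to the median of all genes 7 were called, all 7 lower (6.16% of all genes). At a limit of 0.32 on the log2 scale 13 were called, 9 lower and 4 higher (C3, C6, C4a and C5ar2, against 24.4% of all genes), and at 2-fold 1, Cfd, which was lower. The median log2 ratio of hepatocyte-made genes was 0.13 and became -0.031 relative to the median of all genes, -0.067 relative to genes of like length and 0.047 with totals without the 20 genes of most counts. That of macrophage-made genes was -0.43 and became -0.59, -0.37 and -0.51 in the same order, and -0.50 with totals without the Mup genes, whose share was 9.87% in the control and 5.46% with erythrodiol. That of receptors and membrane regulators was 0.08 and became -0.079 and -0.073 relative to all genes and to genes of like length. The median of the 3 members of other source was 0.00 and became -0.16 relative to the median of all genes, -0.01 relative to genes of like length and -0.08 with totals without the 20 genes of most counts, a change of sign in which the first and last lie outside the counting interval of Colec11, the median gene (-0.06 to 0.07), and the count of further complement genes called was 2 under both other scalings. The difference between group medians of Hc intron retention was 4.86 percentage points, and 12.0 with junction counts summed over libraries. The summed Hc counts, the other-source scalings and the totals without Mup genes were added after seeing the data. No paired analysis was possible because gene values are 1 sum per group, and for that reason leaving out each replicate and count models were not run.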
